A study of Mus musculus with 6 samples.

Results

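The p53 target genes examined here are a list of 40 genes: regulators and direct targets of the transcription factor p53, sorted by what their products do. Their RNA was measured on Affymetrix arrays in epithelial cells sorted from chemically induced skin papillomas, which are benign tumours of mice. A gene entered through the probe sets annotated to it alone, and the probe set with the highest mean over the 6 arrays stood for it. This gave values for 37 of the 40 genes, all 37 of which passed the intensity filter, among 13222 genes tested in all. For Trp53, the gene of p53 itself, and for the listed names Perp2 and Tap53, no probe set was matched, so they were not analysed here.

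The study compared 3 arrays of control mice with 3 arrays of K14CREER:SOX2fl/fl mice (Sox2cKO), both given tamoxifen for 1 week. In the Sox2cKO mice the keratin 14 promoter, active in the basal layer of the epidermis, drives a Cre recombinase that tamoxifen switches on and that deletes the floxed Sox2 gene. The labels do not say which alleles the control mice carried, nor the strain, age or number of animals behind an array. Living cells positive for Epcam and alpha6 integrin and negative for CD45, CD31 and CD140a were sorted, and the design text speaks of 3 biological experiments. All values are log2 intensities per probe set as deposited, and every difference is Sox2cKO minus control.

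In unstressed cells p53 is kept scarce by Mdm2, a ubiquitin ligase that marks it for degradation, together with its relative Mdm4. DNA damage or oncogene signalling releases p53, which binds pairs of a 10-base element, here called the p53 decamer, near its targets. The targets halt the cell cycle (Cdkn1a), start apoptosis (Fas, Apaf1), repair DNA (Xpc) and, through Mdm2 and Ppm1d, shut p53 off again. In mouse skin p53 is best known for restraining the passage from papilloma to carcinoma.

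The letters of the p53 decamer were searched in the 250 bases before each RefSeq transcription start, on assembly GRCm38.p6, where 29 of the 37 measured genes had an entry. A decamer reads the same on both strands, so 1 search covers both. It was found for 11 of the 29 genes (37.9%), against 8.2% of all 27025 genes in the table, whether measured on the arrays or not. Because the genes were listed as regulators and direct targets of p53, these shares describe the list and are not a test. A full element, meaning a pair of decamers with at most 13 bases between, was found for 1 of the 29, Cdkn1a, and for 18 of all genes (0.0666%). The stretches of Cdkn1a and of the 3 negative regulators with a match are shown because the largest differences below include members of this loop. Capitals mark the decamers, and each is written 5′ to 3′ on the strand of its gene.
Cdkn1a (chr17:29090871-29090972, plus strand): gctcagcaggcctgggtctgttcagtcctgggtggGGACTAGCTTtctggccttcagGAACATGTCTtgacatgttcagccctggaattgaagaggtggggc
Mdm2 (chr10:117710900-117710979, minus strand): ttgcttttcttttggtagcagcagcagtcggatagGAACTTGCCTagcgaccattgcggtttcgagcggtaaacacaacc
Ppm1d (chr11:85311087-85311166, plus strand): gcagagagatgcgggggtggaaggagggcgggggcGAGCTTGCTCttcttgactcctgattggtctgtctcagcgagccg
Ccng1 (chr11:40755427-40755506, minus strand): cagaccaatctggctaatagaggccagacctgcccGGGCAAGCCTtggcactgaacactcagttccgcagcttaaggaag

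The Cdkn1a pair lay 42 to 73 bases before one of the 2 starts listed for that gene, with 12 bases between the decamers. The search allowed no mismatch. The stretch of the same length directly after the second decamer misses the pattern by a single letter, so it was neither counted nor capitalised. The pair and its spacing are thus those of the exact search. Single decamers ended 177 bases before the start in Mdm2, 123 in Ppm1d and 176 in Ccng1. The other genes with a match were Gadd45a, Sesn1, Aen, Polk, Ei24, Ckap2 and Rps27l. A match is a run of letters and not a measured binding site, and p53 sites outside these windows were not searched. Of the 11 genes with a decamer 6 read higher in Sox2cKO and 5 lower (median difference 0.17), and of the 18 without one 11 read higher (median 0.03).

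Before the members, the arrays themselves. Sox2 read 7.19, 8.31 and 8.18 in control replicates 1 to 3 and 4.07, 4.63 and 3.23 in Sox2cKO, a difference of -3.92 (SE 0.41, limma adjusted p = 0.316). The lowest of these values lies at the level of unspiked control probe sets (3.34 to 3.41) and the other Sox2cKO values above it. Control replicates 2 and 3 carried the female pattern of sex-linked genes, with Xist at 12.03 and 11.85, while the other 4 arrays read 6.08 to 7.54 and had the male pattern. Group and sex thus overlap in part, and the differences against control replicate 1 alone, which the fit with a sex covariate gives, stand beside the main results. Sox2cKO replicate 3 had the highest 18S ribosomal RNA signal, 12.49 against 10.96 to 11.78 elsewhere, and the most fibroblast and pericyte marker signal, given below.

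Across the list, no p53 target passed the threshold. Of the 37 genes 21 read higher and 16 lower in Sox2cKO (56.8% higher, against 50.6% of all genes tested), with a median difference of 0.03 beside 0.0027 for all genes. That median was -0.01 without control replicate 2 and -0.0029 without Sox2cKO replicate 3. With limma 0 of 37 had an adjusted p under 0.05, as had 0 of 13222 genes (0%), and the lowest adjusted p of a member was 0.999. Only Sertad1 and Trp53inp1, 2 of 37 members (5.41%), had an unadjusted p under 0.05, against a background of 2.68% of all genes. Both read higher, where 1.38% of all genes were higher at that p and 1.29% lower. In 5 members (13.5%) the groups did not overlap, against 5.85% of all genes: Sertad1, Trp53inp1 and Rrm2b were higher in every Sox2cKO array (2.73% of all genes), and Dram1 and Pvt1 lower (3.12% of all genes). Members differed more than most genes, with a median absolute difference of 0.18 beside 0.10 for all genes, but they also varied more within groups, with a median SD of 0.31 beside 0.19.

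**Figure D1:**
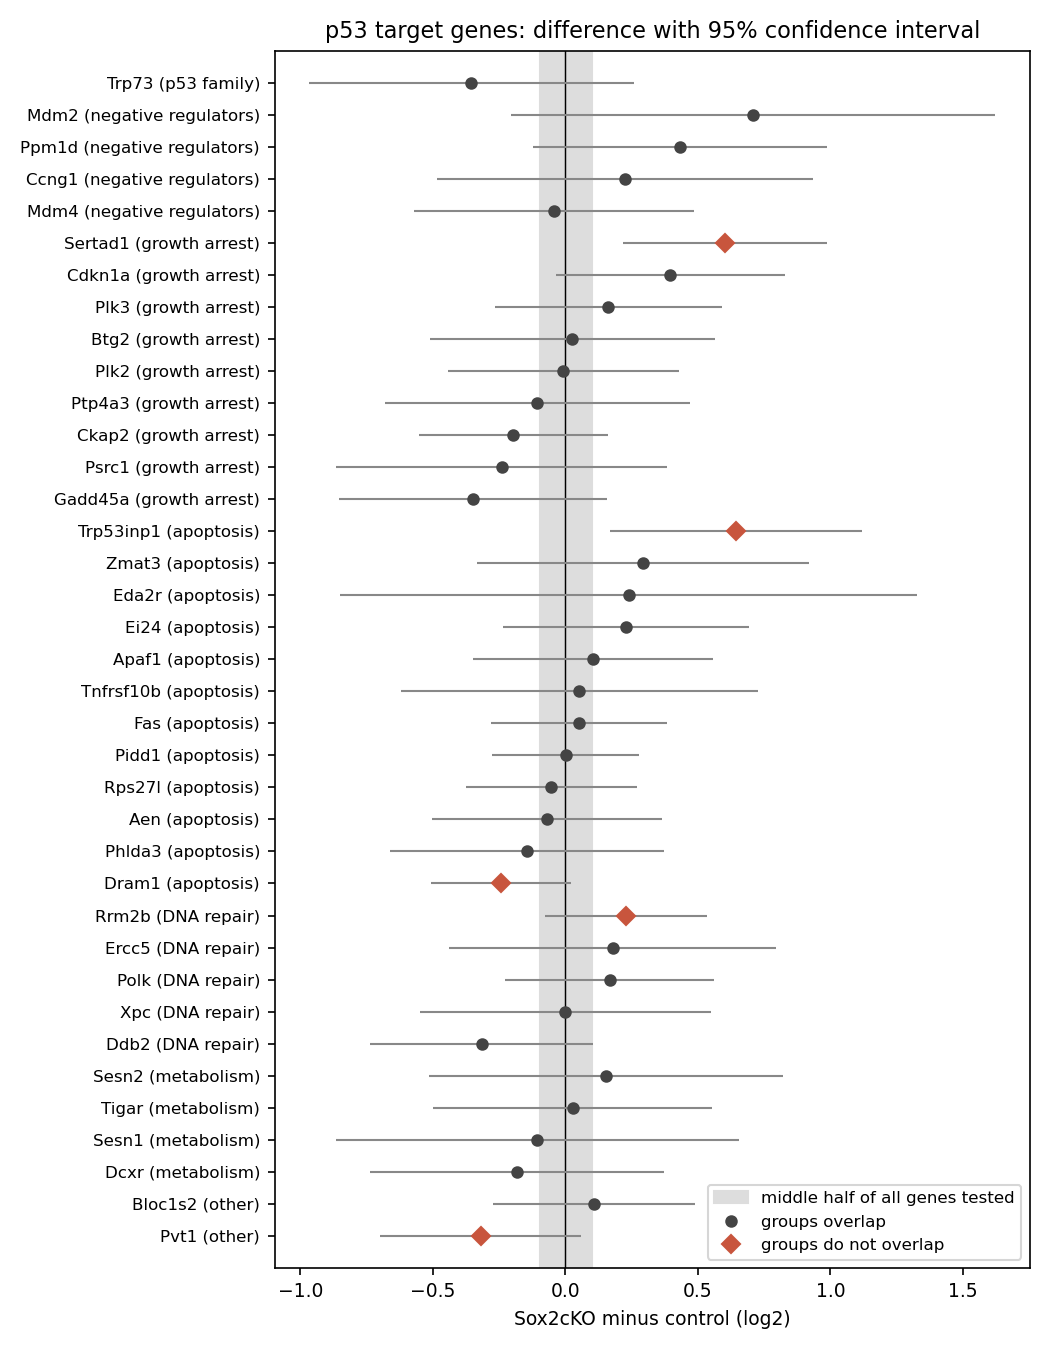
Difference Sox2cKO minus control on the log2 scale (x axis) for the 37 measured p53 targets (y axis, grouped by role), with 95% confidence intervals from limma (3 arrays per group). Diamonds mark the 5 genes whose groups do not overlap, the grey band is the interquartile range of all 13222 genes, and only the intervals of Sertad1 (0.22 to 0.98) and Trp53inp1 (0.17 to 1.12) leave out 0.

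Among the negative regulators of p53, Mdm2 and Ppm1d had the larger differences while Mdm4 differed by less than its SE. Mdm2 read 10.43, 9.32 and 9.85 in control replicates 1 to 3 and 11.05, 9.80 and 10.88 in Sox2cKO. Sox2cKO replicates 1 and 3 were above every control, but Sox2cKO replicate 2 lay below control replicates 1 and 3, so the groups overlapped. The means were 9.87 ± 0.55 and 10.58 ± 0.68 (SD, n = 3 each), a difference of 0.71 (SE 0.39, limma adjusted p = 0.999, 95% confidence interval -0.20 to 1.62). The other probe set of Mdm2 that passed the filter pointed the same way at 1.04. Against control replicate 1 alone the Mdm2 difference was 0.15, and leaving out each array in turn gave 0.44 (without control replicate 2) to 1.10 (without Sox2cKO replicate 2).

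Ppm1d, whose product Wip1 is a phosphatase that switches off p53 and its activating kinases, read 7.97, 7.28 and 7.46 in controls and 8.36, 7.68 and 7.97 in Sox2cKO. Only Sox2cKO replicate 1 exceeded all controls. Sox2cKO replicate 2 again lay below control replicate 1, and replicate 3 was level with it (7.968 against 7.972). The difference was 0.43 (SE 0.24, limma adjusted p = 0.999), 0.20 in its second probe set, and 0.03 against control replicate 1 alone. Mdm4, which binds p53 and blocks its activation domain, read 7.97, 7.94 and 8.28 in controls and 7.94, 8.49 and 7.64 in Sox2cKO. The Sox2cKO values enclosed those of the controls on both sides, and the mean difference was -0.04 (95% confidence interval -0.57 to 0.49). Ccng1, encoding cyclin G1, which recruits a phosphatase to Mdm2, differed by 0.22 in the probe set used and by 0.53 and 0.57 in its other probe sets. Its highest value, 11.98, was in Sox2cKO replicate 3, and without that array the difference turned to -0.13.

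The genes grouped under growth arrest did not move as a block: 4 of 9 read higher and 5 lower, with a median of -0.01. The grouping is broad, since it also holds Sertad1, Psrc1 and Ckap2, whose products are described below. Cdkn1a encodes p21, the inhibitor of cyclin-dependent kinases through which p53 stops the cycle in G1. It read 11.71, 11.27 and 11.49 in controls and 12.08, 11.57 and 12.01 in Sox2cKO. Sox2cKO replicates 1 and 3 were above all controls, while Sox2cKO replicate 2 was below control replicate 1. The difference was 0.40, or 1.32-fold (SE 0.18, limma adjusted p = 0.999, 95% confidence interval -0.04 to 0.83), with 0.39 in the second probe set and 0.17 against control replicate 1 alone.

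Sertad1, a cofactor of E2F-driven transcription that binds CDK4, had the smallest unadjusted p of the list (0.0073). It read 9.58, 9.50 and 9.38 in controls and 10.27, 9.77 and 10.23 in Sox2cKO, so that every Sox2cKO array exceeded every control. The difference was 0.60, or 1.52-fold (SE 0.16, limma adjusted p = 0.999). It stayed at 0.51 against control replicate 1 alone and between 0.51 and 0.76 when each array was left out. Gadd45a, a stress-induced growth arrest and repair factor, had the lowest difference of this role, -0.35, but it was 0.04 against control replicate 1 alone, since control replicates 2 and 3 held the highest values (9.22 and 9.59).

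The polo-like kinase genes Plk2 and Plk3 differed by -0.01 and 0.16, and the anti-proliferative gene Btg2 by 0.03, with SEs of 0.18 to 0.23. Psrc1 and Ckap2, which encode proteins of spindle microtubules, read lower by -0.24 and -0.20. Beside them, all 23 measured genes of a G2 and mitosis list, chosen as a marker of cycling cells, read lower in Sox2cKO (median -0.26), with Nusap1 at -0.35 and Cdc25c at -0.61, though 0 of 23 had a limma adjusted p under 0.05 and 2 an unadjusted one. Against control replicate 1 alone 18 of the 23 read lower and 5 higher, and the median deviation of the list in Sox2cKO replicate 3 (0.16) exceeded that of control replicates 1 and 3 (-0.02 and 0.09). The part of cycling cells in the member differences was not tested. The phosphatase gene Ptp4a3 differed by -0.11.

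**Figure D2:**
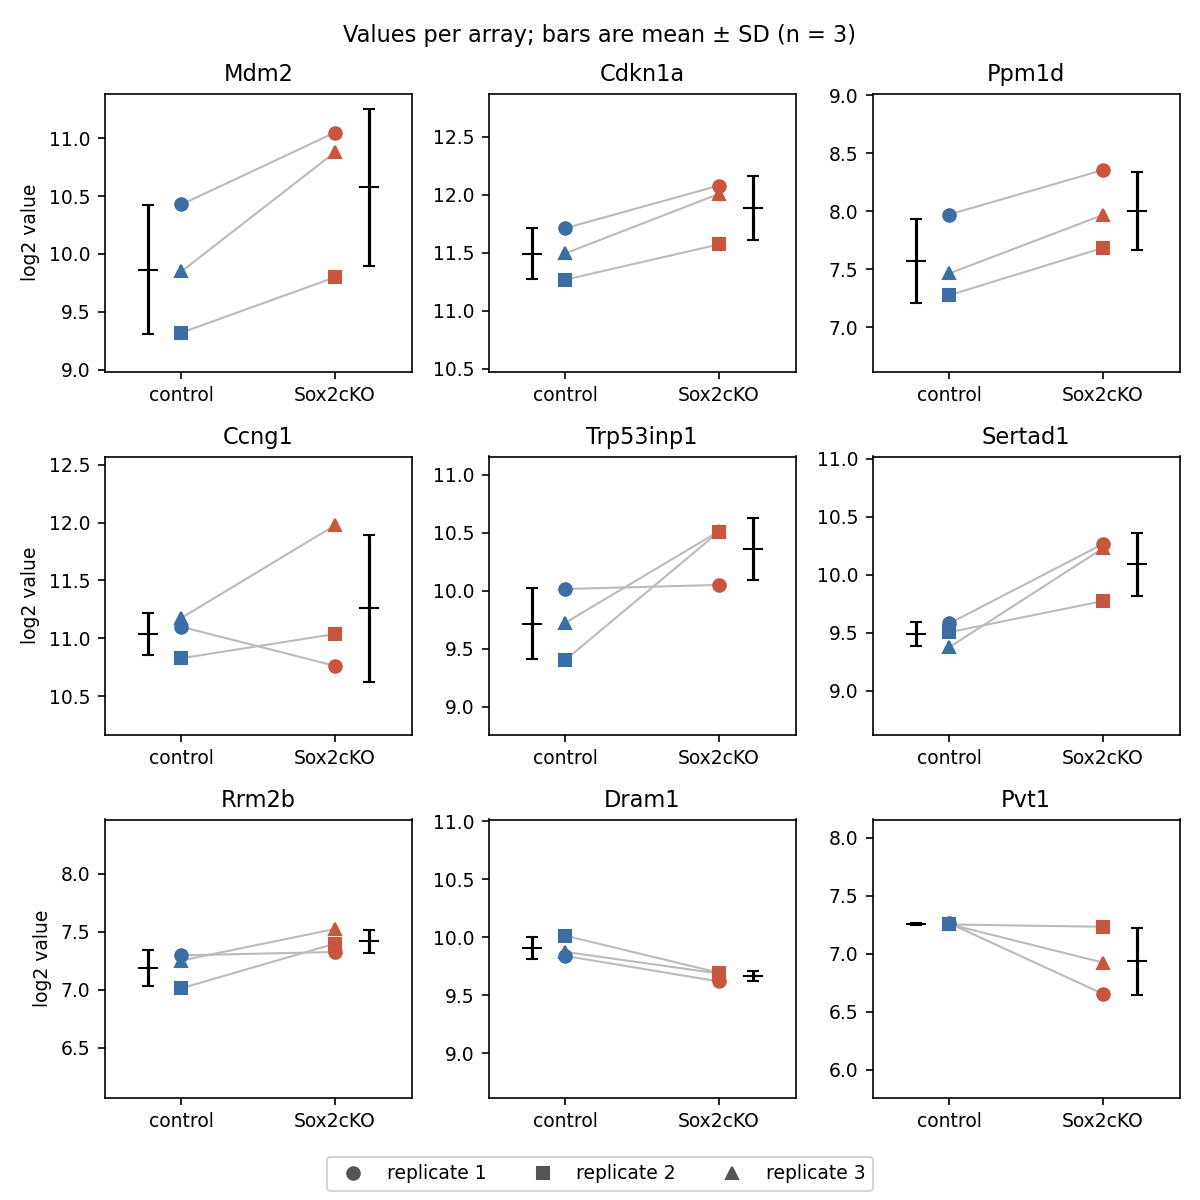
Log2 value (y axis) of 9 p53 targets in each array, controls in blue and Sox2cKO in red, with grey lines joining arrays of the same replicate number and black bars for the mean ± SD of each group (n = 3). Every panel spans a range of the same width. Mdm2, Cdkn1a and Ppm1d have Sox2cKO above control in each pair, while the lines of Ccng1 cross.

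Of 12 measured apoptosis genes 8 read higher and 4 lower, with a median of 0.05. Trp53inp1, a nuclear protein that promotes p53-dependent cell death and autophagy, read 10.02, 9.40 and 9.73 in controls and 10.05, 10.51 and 10.51 in Sox2cKO. The groups did not overlap, but Sox2cKO replicate 1 exceeded control replicate 1 by only 0.03. The difference was 0.64, or 1.56-fold (SE 0.20, limma adjusted p = 0.999), with 0.32 in its other probe set, where the groups overlapped, and 0.34 against control replicate 1 alone. Dram1, a lysosomal membrane protein of p53-induced autophagy, read 9.84, 10.01 and 9.87 in controls and 9.62, 9.69 and 9.69 in Sox2cKO. All Sox2cKO values were lower, by a mean of -0.24 (SE 0.11, limma adjusted p = 0.999), and against control replicate 1 alone the difference was -0.17.

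The remaining apoptosis genes had overlapping groups in the probe sets used, though a second, dimmer probe set of Apaf1 was higher in every Sox2cKO array (0.34). Those that read higher were the mRNA-binding factor gene Zmat3 (0.29), the TNF receptor family gene Eda2r (0.24), the Bcl-2-binding Ei24 (0.23), the apoptosome gene Apaf1 (0.10) and the death receptor genes Fas (0.05) and Tnfrsf10b (0.05). Without Sox2cKO replicate 3 the difference of Zmat3 was 0.05 and that of Ei24 0.04. The PIDDosome gene Pidd1 read 6.63 in both groups. The Akt inhibitor gene Phlda3 (-0.15), the exonuclease gene Aen (-0.07) and the ribosomal protein-like gene Rps27l (-0.05) read lower. Eda2r had the widest spread of all members within groups (SD 0.98 in controls), since control replicate 2 read 5.56 and the other controls 7.35 and 7.12. Against control replicate 1 alone the differences of Eda2r, Tnfrsf10b and Fas were -0.44, -0.39 and -0.16, the opposite direction.

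In DNA repair, 3 of 5 genes read higher and 2 lower. Ddb2, which recognises ultraviolet damage for nucleotide excision repair, read 7.94, 8.08 and 7.76 in controls and 7.69, 7.86 and 7.28 in Sox2cKO. Sox2cKO replicate 2 lay within the range of the controls and the other Sox2cKO arrays below it, and the difference was -0.32 (SE 0.18, limma adjusted p = 0.999), or -0.15 without Sox2cKO replicate 3. Rrm2b, the p53-inducible subunit of ribonucleotide reductase that supplies deoxynucleotides for repair, read 7.30, 7.01 and 7.25 in controls and 7.33, 7.40 and 7.52 in Sox2cKO. Its groups did not overlap, by a margin of 0.03 between the nearest arrays, and the difference was 0.23 (SE 0.13, limma adjusted p = 0.999), or 0.12 against control replicate 1 alone. A second, dimmer probe set of Rrm2b also had groups that did not overlap (0.67). The translesion polymerase gene Polk (0.17), the endonuclease gene Ercc5 (0.18) and the damage sensor gene Xpc (-0.00033) differed by less than their SD in Sox2cKO (0.30, 0.56 and 0.48).

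The metabolic targets and the remaining members showed no common direction. Dcxr, a dicarbonyl and xylulose reductase, had the largest metabolic difference, with 9.75, 9.82 and 9.64 in controls and 9.13, 9.43 and 10.09 in Sox2cKO. Its Sox2cKO arrays lay on both sides of the controls (mean difference -0.18, SE 0.24). Sesn2 (0.15), Sesn1 (-0.11), both stress-induced inhibitors of mTORC1, and Tigar (0.03), a fructose bisphosphatase that slows glycolysis, had SEs of 0.22 to 0.32. The non-coding RNA Pvt1 read 7.26, 7.25 and 7.25 in controls and 6.65, 7.23 and 6.92 in Sox2cKO, without overlap but with Sox2cKO replicate 2 only 0.02 below the nearest control (difference -0.32, SE 0.16, limma adjusted p = 0.999). Bloc1s2, of a complex that builds lysosome-related organelles, differed by 0.11. The p53 relative Trp73 read 7.28, 7.85 and 7.44 in controls and 6.94, 7.71 and 6.85 in Sox2cKO. Sox2cKO replicate 2 lay among the controls and the other Sox2cKO arrays below them, for a difference of -0.36 (SE 0.26), or -0.11 against control replicate 1 alone.

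Because same-numbered arrays shared part of their deviation (0.21 to 0.29 as a correlation over genes, which are not independent replicates), the differences within each number are given as well. In numbers 2 and 3 the control had the female pattern and the Sox2cKO array the male one. Only number 1 joins arrays of the same sex pattern. Mdm2 was higher in Sox2cKO by 0.62, 0.48 and 1.03 in replicates 1, 2 and 3, Cdkn1a by 0.37, 0.30 and 0.51, and Ppm1d by 0.38, 0.41 and 0.50. Against control replicate 1, the control of male pattern, Sox2cKO replicate 1 read higher and Sox2cKO replicate 2 lower in all 3 genes. In all, 7 of 37 members were higher within every number (18.9%, against 12.1% of all genes): these 3, Sertad1, Trp53inp1, Rrm2b and Plk3. Another 6 were lower within every number (16.2%, against 12.7% of all genes): Ddb2, Trp73, Dram1, Pvt1, Ckap2 and Phlda3.

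With the replicate number as a block, 7 of 37 members had an unadjusted p under 0.05 (18.9%, against 4.96% of all genes), and 0 of 37 an adjusted one (lowest 0.852, Mdm2), as did 0 of 13222 genes (0%). The 5 higher ones were Mdm2, Ppm1d, Sertad1, Cdkn1a and Trp53inp1 (2.41% of all genes), and the 2 lower ones Ddb2 and Trp73 (2.56% of all genes). The block left the mean differences as they were. It narrowed the 95% confidence interval of 27 members, to 0.34 to 1.08 for Mdm2, 0.17 to 0.70 for Ppm1d and 0.12 to 0.67 for Cdkn1a, and widened that of 10, to 0.07 to 1.22 for Trp53inp1. Against control replicate 1 alone, a fit whose control arm is 1 array, 0 of 37 members had an unadjusted p under 0.05, as had 0.711% of all genes.

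**Figure D3:**
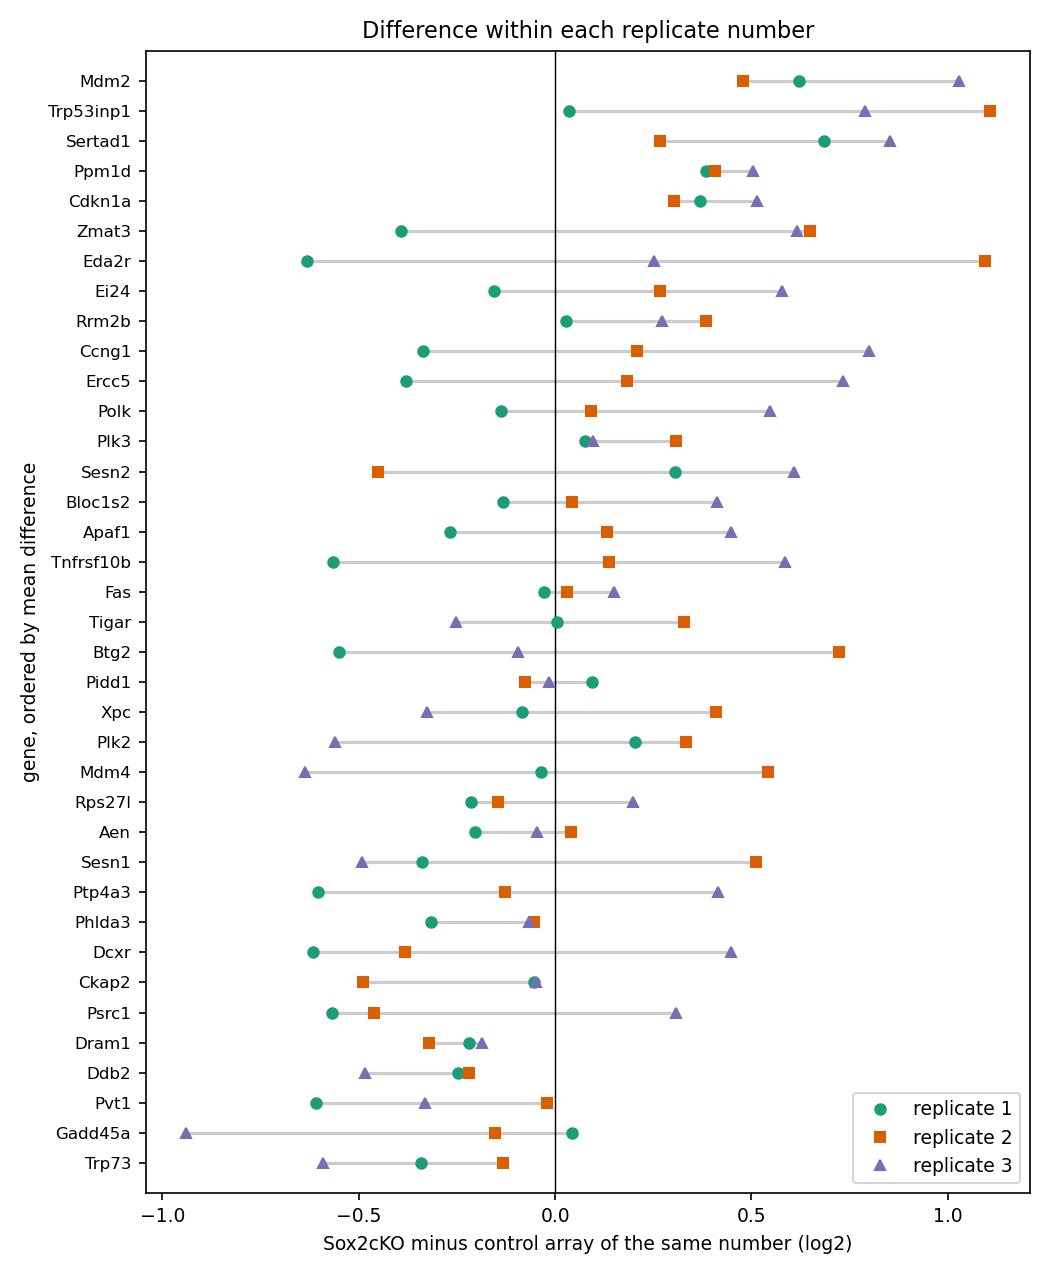
Difference Sox2cKO minus control between arrays of the same replicate number (x axis, log2) for the 37 members (y axis, ordered by mean difference), with 1 symbol per replicate number and a grey line over their range. Mdm2, Ppm1d and Cdkn1a sit to the right of 0 in all 3 pairs, Mdm2 from 0.48 to 1.03, and Trp53inp1 ranges from 0.03 to 1.11.

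The spread within groups also followed a shared order for some members, a pattern looked for after the values were seen. Mdm2 was highest in replicate 1, then 3, then 2, in controls and in Sox2cKO alike, and Cdkn1a, Ppm1d and Fas had the same order in both groups. These are 3 of the 36 other members (8.33%), where 3.80% of all genes had that order. The reverse order in both groups was held by Plk3, Phlda3 and Dram1 (8.33% of 36, against 4.93% of all genes). Suprabasal keratinocyte markers, as the median deviation of 9 genes from their means, read 0.44, -0.70 and -0.31 in controls and 0.56, 0.44 and -0.22 in Sox2cKO, with 9 of 9 higher by group means (Lor by 0.33, Ivl by 0.84). Against control replicate 1 alone, only Lor and Sbsn had a higher Sox2cKO mean. Krt1, Krt10, Ivl, Krtdap, Dsg1a, Dsc1 and Tgm3 had a lower one. Ivl, for example, read 8.29 in that control and had a Sox2cKO mean of 8.16. Immediate early and dissociation-response genes read -0.22, 0.15 and -0.03 in controls and -0.03, 0.24 and -0.04 in Sox2cKO, with 11 of 19 higher (Hspa1a by 0.42, Ier5 by 0.26). What part these cell states had in the order of the p53 targets was not tested.

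Sox2cKO replicate 3 held the highest value of 14 of the 37 members (37.8%, against 16.3% of all genes): Trp53inp1, Ccng1, Zmat3, Tnfrsf10b, Polk, Rrm2b, Ei24, Eda2r, Dcxr, Rps27l, Ercc5, Bloc1s2, Ptp4a3 and Apaf1. Sox2cKO replicate 1 held the lowest value of 14 members as well (37.8%, against 18.3%). In 9 genes belonging to both sets (24.3% of members) the Sox2cKO arrays thus lay on both sides of all controls. The share of all genes with both extremes was not counted. In Sox2cKO replicate 3, 14 of 18 measured fibroblast and pericyte markers were at their highest, Postn, Thy1, Acta2 and Cspg4 being highest in Sox2cKO replicate 1. By group means 17 of the 18 read higher in Sox2cKO. The log2 of their mean linear signal ran from 8.49 to 9.14 in controls, was 9.38 and 9.56 in Sox2cKO replicates 1 and 2 and 10.45 in replicate 3. Lum and Col5a1 differed by 1.61 and 0.86, and Pdgfra, the gene of the excluded CD140a, read 7.25 there and 5.05 to 6.22 elsewhere. In bulk RNA more cells of a type and more RNA per cell cannot be told apart, and the part of these cells in the member values was not tested.

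**Figure D4:**
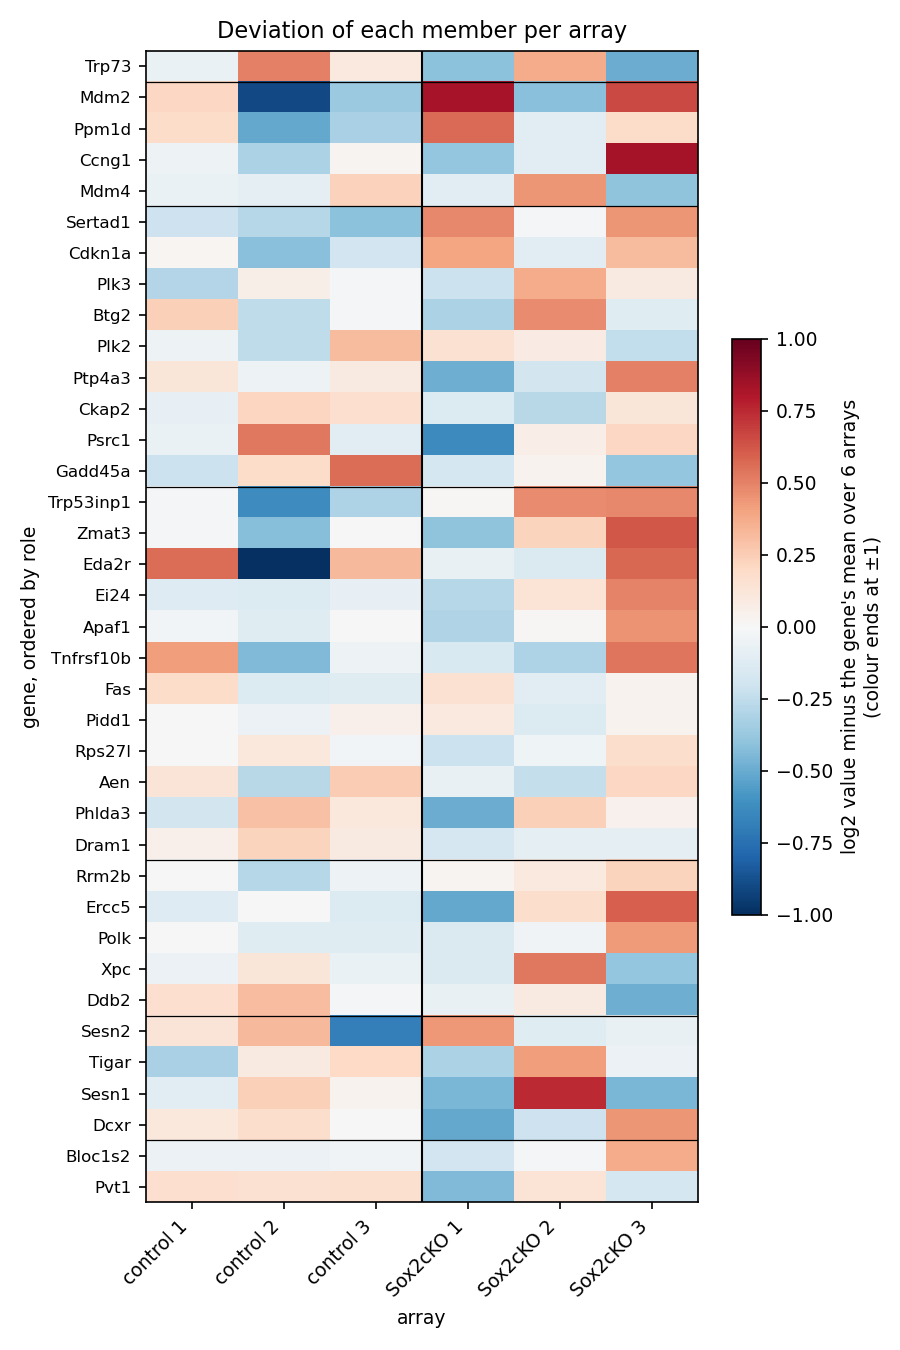
Heat map of the log2 value of each of the 37 members (rows, ordered by role) in each of the 6 arrays (columns) minus the gene's mean over the 6 arrays, with red above and blue below the mean and the colour ending at ±1. Sox2cKO replicate 3 is red for 14 members that peak there, and Mdm2, Ppm1d and Cdkn1a share blue in control replicate 2 and red in Sox2cKO replicates 1 and 3.

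Other cell markers also differed between the groups, and their part in the member values was not tested. Of 6 Langerhans cell and MHC class II genes 5 read lower (median -1.05), namely Epcam and the MHC class II pathway genes, with H2-Ab1 at -1.26 and Cd74 at -1.09, while Cd207, the gene of langerin, differed by 0.014. Sebocyte genes read lower in 6 of 6 (median -0.51, with Mgst1 at -0.40 and Elovl3 at -1.65). Control replicate 2 stood out among the controls: the median deviation of these genes was -0.09, 0.87 and 0.04 in control replicates 1 to 3. In Sox2cKO it was -0.61, 0.26 and -0.74. Of 8 basal keratinocyte genes 3 read higher and 5 lower, with a median of -0.0036. Among them Krt15 (-0.56) was lower in every Sox2cKO array, as were 3.12% of all genes, and Itga6 differed by 0.09. Leukocyte and endothelial markers had medians of 0.05 and 0.02. The sort markers Epcam and Itga6 read 11.31 ± 0.20 and 12.17 ± 0.07 in controls and 10.85 ± 0.35 and 12.26 ± 0.19 in Sox2cKO, while Ptprc (CD45) read 5.00 ± 0.27 and 5.10 ± 0.48, and Pecam1 (CD31) stayed below the filter at 4.58 and 4.74. No marker named here had an adjusted p under 0.05 with limma.

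The wider p53 pathway was covered by a list of 36 other genes, upstream kinases, cofactors, relatives and further targets, of which 31 were measured. Of these 16 read higher and 15 lower, with a median of 0.0078, and 0 of 31 had an adjusted or unadjusted p under 0.05 with limma. The smallest unadjusted p belonged to Cdkn2a, the locus of p16 and of p19Arf, which holds Mdm2 in check. It read 9.62, 9.01 and 9.47 in controls and 7.70, 9.18 and 8.94 in Sox2cKO. Sox2cKO replicates 1 and 3 lay below every control, while replicate 2 lay among them (difference -0.76, SE 0.38). The probe set does not tell the transcripts of that locus apart in the annotation used.

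The pathway genes next in order had unadjusted limma p values of 0.126 (Tnfaip8) to 0.236 (Bcl2l1). Tnfaip8 (-0.21), an inhibitor of cell death, was lower in every Sox2cKO array. It was the only 1 of the 31 whose groups did not overlap, against 5.85% of all genes. The cytokine gene Lif (-0.67), the checkpoint kinase gene Chek1 (-0.29), the apoptosis gene Siva1 (-0.27) and the survival gene Bcl2l1 (0.21) had overlapping groups. Trp63, the p53 relative that maintains basal keratinocytes, read 11.46 ± 0.09 in controls and 11.51 ± 0.22 in Sox2cKO, and Perp, a desmosome gene driven by p53 and p63, read 12.87 ± 0.08 and 12.95 ± 0.15. Bbc3, which encodes the BH3-only killer Puma, read 7.02 ± 0.26 and 7.05 ± 0.20. Bax had no probe set annotated to it alone and was not analysed here.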

How the data were processed

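Values came from the table the authors deposited, 1 log2 value per probe set and array (45101 probe sets, 64 of them controls). The log2 scale was read from their range, and per the submitters' processing notes R 2.14.0 was used. The way of background correction, summarising and normalization is not given in the sources used here. Array medians of 5.42 to 5.46 show a common scale, so a shift shared by most genes would not be seen. The number of arrays limits the precision.

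Symbols came from the platform annotation, with 34945 probe sets naming 1 gene, 932 several and 9160 none. Checked by Entrez identifier against the RefSeq table of GRCm38.p6, 0 needed updating. Probe sets above the array's 40th percentile in at least 3 arrays were tested (13222 genes, 1 probe set each). The test of each difference, two-sided, was limma's moderated statistic (limma 3.58.1, R 4.3.3), with Benjamini-Hochberg adjustment over all genes and a threshold of 0.05. The procedure was tested on simulated data.

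Named with values per array were Mdm2, Mdm4, Cdkn1a, members whose groups did not overlap or with unadjusted p under 0.05, and those of smallest p or largest difference in each role. Of the wider pathway, the 6 of smallest p, Perp, Trp63, Bax, Bbc3 and Cdkn2a were named. Members, lists and rules were chosen with earlier results of these data known. Remarks on Ccng1, Gadd45a, Eda2r and on array order were added after values were seen.

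Replicate numbers, whose meaning the labels do not give, were treated as pairs because deviations of same-numbered arrays correlated at 0.288, 0.206 and 0.21, each above the 0.1 required. The pairing thus rests on the same values it was then applied to, and the pairs are not all matched in sex pattern. The fits with that block, a sex covariate, other filters, scales, probe set rules and arrays left out were run as alternatives.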

Additional observations from a re-analysis of the deposited data

How the results depend on the processing

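Under 15 alternatives 0 of 37 members passed the threshold in any (lowest adjusted p 0.775), and 14 members kept their direction throughout, Mdm2, Cdkn1a, Ppm1d, Sertad1, Trp53inp1, Rrm2b, Dram1, Pvt1, Ddb2 and Trp73 among them. Over all genes 1 gene passed with the sex covariate, and 0 to 5 when each array was left out (5 without control replicate 1). Members with an unadjusted p under 0.05 numbered 7 with the replicate block (4.96% of all genes), 0 with the sex covariate (0.711%) and 1 to 9 with arrays left out. They were 1 without control replicate 2 (1.51% of all genes), 4 and 5 without Sox2cKO replicates 3 and 1 (3.97% and 2.89%), 6 when control replicate 1 was dropped (4.82%) and 9 when Sox2cKO replicate 2 was (4.78%), so the share over all genes moved as well. Members whose groups did not overlap numbered 3 with probe sets averaged (6.32% of all genes) and 5 to 12 with arrays left out (10.8% to 20.1% of all genes). The lowest, 5 without control replicate 2 and 6 without control replicate 3, stand beside 10.8% and 13.2% of all genes. The median of the wider pathway was -0.084 with the sex covariate and -0.049 to 0.039 with arrays left out. The replicate block changed no other call.

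Directions turned in 23 members, 50 of 553 values, all in genes with reported differences of at most 0.35 in size. With the sex covariate they turned for Mdm4 (0.047), Gadd45a (0.043), Sesn1 (0.062), Sesn2 (-0.050), Phlda3 (0.11), Btg2 (-0.22), Plk2 (0.044), Fas (-0.16), Tnfrsf10b (-0.39), Xpc (0.059), Eda2r (-0.44) and Pidd1 (-0.0070). Aen turned to 0.068 with probe sets averaged, and Xpc to 0.0070 with arrays centred on their medians and to 0.0041 with 16 added on the linear scale. With arrays left out the ranges were -0.28 to 0.15 for Mdm4, -0.13 to 0.47 for Ccng1, -0.51 to 0.095 for Sesn1, -0.15 to 0.36 for Sesn2, -0.30 to 0.068 for Phlda3, -0.20 to 0.19 for Btg2, -0.14 to 0.15 for Plk2 and -0.013 to 0.15 for Fas. They were -0.20 to 0.27 for Tnfrsf10b, -0.22 to 0.040 for Aen, -0.0029 to 0.28 for Polk, -0.27 to 0.19 for Xpc, -0.17 to 0.19 for Tigar, -0.40 to 0.015 for Psrc1, -0.32 to 0.58 for Eda2r and -0.45 to 0.025 for Dcxr. For Rps27l they were -0.15 to 0.041, for Ercc5 -0.075 to 0.48, for Bloc1s2 -0.053 to 0.23, for Ptp4a3 -0.39 to 0.11, for Apaf1 -0.092 to 0.28 and for Pidd1 -0.050 to 0.068. The cause was not tested. With arrays left out, some members that kept their direction moved by more than 1.5 times. They were Zmat3 (0.053 to 0.57), Ei24 (0.039 to 0.43), Plk3 (0.017 to 0.31), Ddb2 (-0.44 to -0.15) and Trp73 (-0.63 to -0.19). Pvt1 (-0.47 to -0.18), Ckap2 (-0.31 to -0.11), Rrm2b (0.14 to 0.28), Ppm1d (0.25 to 0.63) and Mdm2 (0.44 to 1.10) did so too. The sex covariate moved values by more than 1.5 times for Mdm2 (to 0.15), Ppm1d (0.030), Cdkn1a (0.17) and Trp53inp1 (0.34). It did so as well for Zmat3 (0.16), Plk3 (0.37), Rrm2b (0.12), Trp73 (-0.11) and Ckap2 (-0.015). Among members that turned under other alternatives, it moved Tigar (0.34), Psrc1 (-0.055), Polk (0.088), Aen (-0.16), Ptp4a3 (-0.17) and Rps27l (-0.025) that far too. Averaging probe sets moved Rrm2b to 0.45, Ccng1 to 0.44, Polk to 0.30, Apaf1 to 0.22, Tigar to 0.18 and Tnfrsf10b to 0.13. The same averaging moved Mdm4 to -0.0088, Sesn1 to -0.044 and Rps27l to -0.026. Probe sets of Aen, Mdm4, Sesn1 and Tigar disagreed in direction.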
